A study of Mus musculus with 3 samples.

Results

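Oxidative phosphorylation makes most of the ATP of a resting cell in the inner mitochondrial membrane. Complexes I (NADH dehydrogenase), II (succinate dehydrogenase), III (cytochrome bc1) and IV (cytochrome c oxidase) pass electrons from NADH and succinate to oxygen and, except for complex II, pump protons, and complex V (ATP synthase) uses the proton gradient. Most subunits are encoded in the nucleus and imported, while the mitochondrial genome (mtDNA) encodes a core of complexes I, III, IV and V. Some nuclear subunits have isoforms that are typical of heart and skeletal muscle, testis or lung, and macrophages stimulated through TLR4 are known for a shift of ATP supply from respiration towards glycolysis.

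The genes described here were taken by their symbols on the array, namely those of the Nduf (a, b, c, s or v), Sdh, Uqcr, Cox5 to Cox8 and Atp5 families, with no use of their values. These symbols covered 80 genes of 26840 with a symbol, on 125 probes of 56605. They comprised 36 genes of complex I, 4 of complex II, 8 of complex III, 15 of complex IV and 15 of complex V, together with 2 genes that carry the family name without being subunits, *Atp5s* and *Atp5sl*. RAW 264.7 cells, a transformed mouse macrophage line, were treated in 3 ways, each measured on 1 array: LPS alone, *L. rhamnosus* CRL1505 followed by LPS (CRL1505 + LPS), and *L. plantarum* CRL1506 followed by LPS (CRL1506 + LPS). The lactobacilli were given for 24 h at 50000000 cells/mL and washed off, and all 3 groups received LPS, a TLR4 agonist, at 50 ng/mL. The series design and the methods give 12 h of LPS, whereas the sample descriptions give 3 h. Cells without LPS were not analysed here.

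With 1 array per group, no test, SD over cultures or p-value could be given, and each ratio compares 2 arrays, not 2 conditions. LPS and CRL1506 + LPS shared a slide and a scan run, and CRL1505 + LPS had a slide and a scan run of its own, so strain and slide cannot be told apart in any ratio of CRL1505. Both comparisons with LPS share the LPS array. Between 48.5% and 55.3% of the gene spots of an array were well above background by the flag of the scanner software, and no spot of these genes was marked as an outlier. Of the macrophage markers examined, 9 of 9 were well above background on all arrays, as were 2 of 3 T cell markers (*Cd3e* and *Cd3d*), 1 of 3 B cell markers (*Ms4a1*), 1 of 4 muscle markers (*Tnnt2*) and 0 of 3 each of epithelium and fibroblasts.

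Levels below are log2 intensities with the 75th percentile of each array set to 0, and a ratio is the difference of 2 such levels. In RNA of whole cultures, fewer cells of a type and less RNA per cell cannot be told apart. Because an intensity depends on the probe, levels are compared between arrays and never between genes. Of the 80 genes, 77 were well above background on all arrays, compared with 13123 of 26672 genes with a usable probe. The other 3, *Cox7b2*, *Cox8b* and *Cox8c*, were not well above background on the 3 arrays, and all of them encode isoforms of complex IV subunits. The spread between probes gave the only error available within an array. For all genes with more than 1 probe well above background, the SD of the log2 ratio between the probes of a gene had a median of 0.23 for CRL1505 + LPS and 0.21 for CRL1506 + LPS. For the oxidative phosphorylation genes it was 0.07 and 0.12, over 28 genes.

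With the 75th percentile as the scale, most subunit genes stood close to the LPS array in both treatments. Their median log2 ratio was -0.13 for CRL1505 + LPS, with the middle 50% of genes between -0.29 and -0.02, and -0.10 for CRL1506 + LPS, with the middle 50% between -0.19 and -0.01. The medians of all genes compared were 0.06 (n = 13230) and -0.06 (n = 14395), respectively. Relative to these, the oxidative phosphorylation genes lay 0.18 lower for CRL1505 + LPS and 0.04 lower for CRL1506 + LPS. Below the median of all genes were 62 of 77 for CRL1505 + LPS and 47 of 77 for CRL1506 + LPS. The genes also lay closer together than genes in general, as the width of the middle 50% was 0.27 against 0.73 for CRL1505 + LPS and 0.18 against 0.45 for CRL1506 + LPS. Within 0.5 of the LPS array were 87.0% of them for CRL1505 + LPS and 97.4% for CRL1506 + LPS, against 62.3% and 78.7% of all genes. For CRL1505 + LPS this depended on the scale, as the median was -0.63 with spike-in probes, with 20.8% of the genes within 0.5, and 0.17 with a shift by the median of the gene spots, with 88.3% within 0.5. The probes of these genes were bright, with a median signal of 31421 on the LPS array, where the 75th percentile was 743. All genes compared were not matched to them for brightness, and its part in the narrower spread was not tested.

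**Figure D1:**
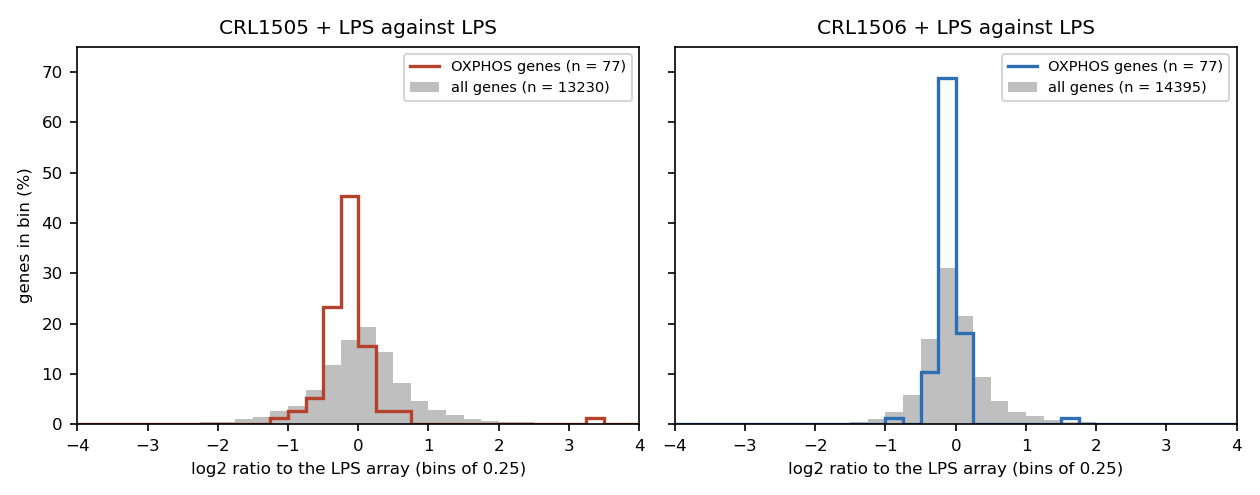
Share of genes (%) in bins of 0.25 of the log2 ratio to the LPS array, for CRL1505 + LPS (left) and CRL1506 + LPS (right). The outline shows the 77 oxidative phosphorylation genes and the grey bars all genes compared (13230 and 14395), with the outline narrower than the bars and a single gene, Cox6a2, far to the right at 3.31 and 1.73.

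Few of the genes passed 2-fold, and the shares of all genes set beside them were not matched for brightness. For CRL1505 + LPS, 1 of 77 (1.30%) was at least 2-fold higher than with LPS alone, against 7.82% of all genes compared, and 1 was at least 2-fold lower, against 6.56%. For CRL1506 + LPS, 1 of 77 was at least 2-fold higher, against 4.11% of all genes, and 0 were at least 2-fold lower, against 2.10%. At 1.5-fold, 2 genes were higher and 4 lower for CRL1505 + LPS, against 17.4% and 14.4% of all genes, and 1 was higher and 1 lower for CRL1506 + LPS, against 9.16% and 7.43%. *Cox6a2* was the gene that passed 2-fold upwards in both comparisons, and *Cox7a1* the one that passed it downwards with CRL1505. *Uqcrh* lay just inside the threshold for CRL1505 + LPS, at -0.999. The number at least 2-fold lower for CRL1505 + LPS depended on the scaling, which moved it from 0 to 7, whereas *Cox6a2* passed 2-fold in both comparisons under each scaling tried.

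**Figure D2:**
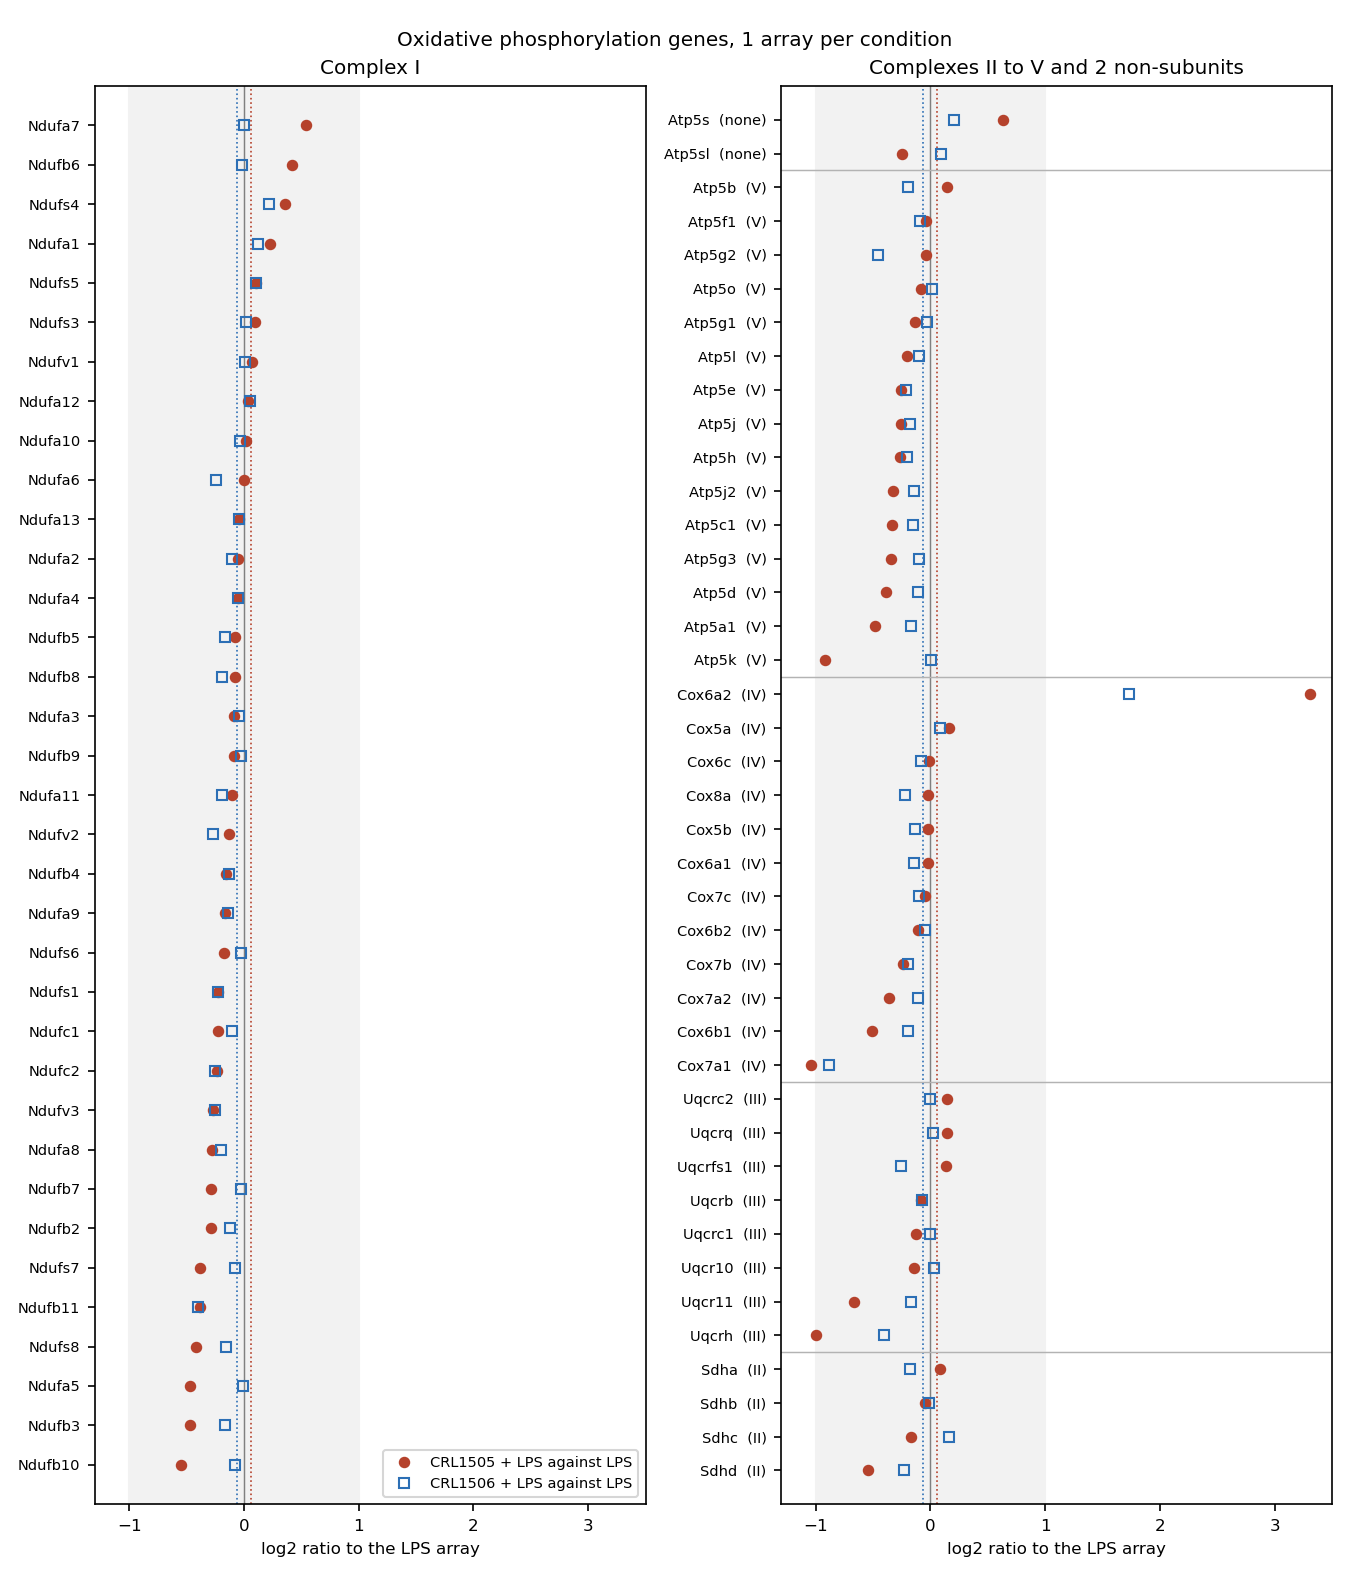
Log2 ratio to the LPS array of the oxidative phosphorylation genes measured, all but 1 of them drawn, by complex (filled circles, CRL1505 + LPS; open squares, CRL1506 + LPS; 1 array each, no error bars). The grey band spans ratios of less than 2-fold and the dotted lines are the medians of all genes (0.06 and -0.06); nearly all points lie in the band, Cox6a2 lies outside on the right in both comparisons, and most genes of complex V lie left of the line for CRL1505 + LPS.

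Complex IV held the members that departed most, and these were muscle-type isoforms. *Cox6a2* encodes the heart and skeletal muscle isoform of subunit VIa, and *Cox6a1* encodes the isoform found in most other tissues. *Cox6a2* was at -0.47 (LPS), 2.84 (CRL1505 + LPS) and 1.26 (CRL1506 + LPS). It was thus lowest with LPS alone, intermediate with CRL1506 and highest with CRL1505, and it was well above background on all 3. These levels correspond to 9.89-fold and 3.33-fold of the LPS level, and to a difference of 1.57 between the strains. Among all genes compared, the ratio of *Cox6a2* ranked 25 from the top of 13230 for CRL1505 + LPS and 185 from the top of 14395 for CRL1506 + LPS. Across the 7 other scalings and sources of values it ranged from 2.80 to 3.60 and from 1.53 to 1.82. *Cox6a1* was at 7.92, 7.90 and 7.78 on the LPS, CRL1505 + LPS and CRL1506 + LPS arrays, with ratios of -0.02 and -0.14. Both were smaller in size than the median SD between probes over all genes (0.23 and 0.21). Over the oxidative phosphorylation genes that SD was 0.07 and 0.12, which -0.14 exceeded in size.

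*Cox7a1*, the muscle isoform of subunit VIIa, went the other way. It was at 2.24 (LPS), 1.20 (CRL1505 + LPS) and 1.35 (CRL1506 + LPS), and was thus highest with LPS alone. It was 2.06-fold lower with CRL1505 and 1.85-fold lower with CRL1506, a log2 ratio of -1.04 and -0.89. On the CRL1506 + LPS array 7 of the 20 nearest spots of *Cox7a1* were uneven in pixel signal, and its part in that value was not tested. Over the other scalings the ratio ranged from -1.55 to -0.74 and from -1.09 to -0.80, so its place beyond 2-fold depended on the scaling. *Cox7a2*, the more widely found isoform, was at 6.02, 5.66 and 5.91 on the 3 arrays in the same order, with ratios of -0.36 and -0.11. The 2 muscle isoforms therefore did not move together, and in each pair the more widely found isoform stayed closer to the LPS array.

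Each of these 4 genes rests on a single probe of 60 bases. The first 30 bases of each probe are shown to make clear that the isoform probes target different sequences.
Cox6a1: ggaccacgaaaaccctttggatgctaagct
Cox6a2: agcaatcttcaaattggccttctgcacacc
Cox7a1: acaacgtcctgtacagactgaccatgacgc
Cox7a2: ttcccaagaagcagaactaatgtcgtcatc
The files place the probes on mouse build mm9, that of *Cox6a1* at chr5:115795726-115795785 (minus strand), *Cox6a2* at chr7:135349160-135349219 (minus strand) and *Cox7a1* at chr7:30970337-30970948 (plus strand, with the ends further apart than the length of the probe). Over all shifts of 1 probe along the other, *Cox6a1* and *Cox6a2* matched at no more than 19 of 60 bases and *Cox7a1* and *Cox7a2* at no more than 20, and the longest run shared within either pair was 4 bases. No probe of another gene shared a run of 15 bases with the probes of *Cox6a2*, *Cox7a1* or *Cox7a2*, while 2 other probes did so with that of *Cox6a1* (longest run 26 bases).

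Markers of muscle were looked at beside *Cox6a2*, with no common order over the arrays. Of the 4 examined, *Ckm*, a creatine kinase, was not well above background on the 3 arrays, *Acta1* was so only on the LPS array, and *Myh7* only on the CRL1505 + LPS array, where *Cox6a2* was highest too. *Tnnt2*, a cardiac troponin, was at 0.02, -0.63 and 1.18 on the LPS, CRL1505 + LPS and CRL1506 + LPS arrays, so that it was lowest where *Cox6a2* was highest. The log2 of the summed level of the 4 markers was 0.20, -0.40 and 1.26, in the same order, and rested mostly on *Tnnt2*. Their part in the value of *Cox6a2* was not tested.

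The other isoform sets stood closer to the LPS array. *Cox6b1*, the somatic form of subunit VIb, was at 3.29, 2.79 and 3.09, with ratios of -0.51 for CRL1505 + LPS and -0.20 for CRL1506 + LPS, while the testis form *Cox6b2* was dim, at -2.08, -2.19 and -2.13, with ratios of -0.11 and -0.05. *Cox8a*, the widely found form of subunit VIII, had ratios of -0.02 and -0.22, and the forms *Cox8b* and *Cox8c* gave no level well above background. The family rule does not reach subunit IV, whose main form *Cox4i1* had ratios of -0.01 and 0.01 and whose lung form *Cox4i2* had ratios of -0.01 and -0.16. Of the remaining subunits of complex IV, *Cox5a* had ratios of 0.16 and 0.09 and *Cox5b* of -0.02 and -0.14. The median of the 12 genes of complex IV measured was -0.03 for CRL1505 + LPS and -0.13 for CRL1506 + LPS. *Ndufa4*, which is filed under complex I by its name but was later assigned to complex IV, had ratios of -0.06 and -0.06.

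**Figure D3:**
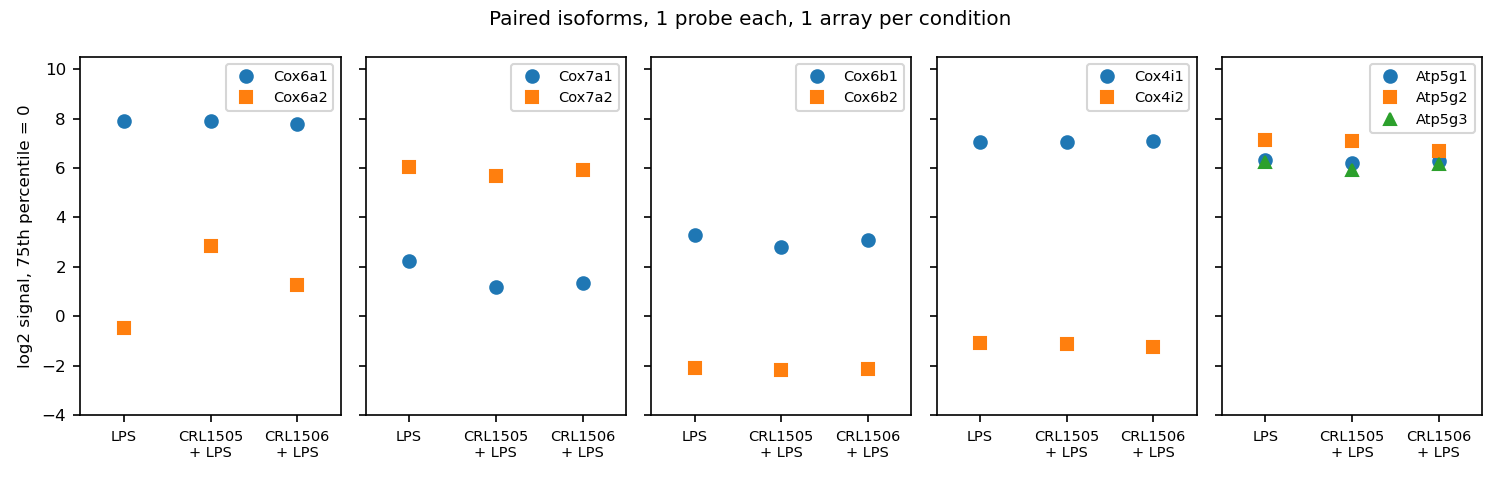
Log2 signal of paired isoforms (75th percentile of each array set to 0) on the LPS, CRL1505 + LPS and CRL1506 + LPS arrays, 1 probe per gene and 1 array per point, no error bars. Heights of different genes depend on their probes and are not comparable. Within a gene, Cox6a2 is at -0.47, 2.84 and 1.26 and Cox7a1 at 2.24, 1.20 and 1.35, while the points of each other gene differ less between the arrays.

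Complex V, the ATP synthase, had the lowest median of the 5 complexes for CRL1505 + LPS, at -0.26 or 0.31 below the median of all genes, with 14 of 15 genes below it. For CRL1506 + LPS its median was -0.14, or 0.08 below that of all genes, with 12 of 15 below. *Atp5k*, the e subunit of the membrane part, was at 5.56 (LPS), 4.65 (CRL1505 + LPS) and 5.57 (CRL1506 + LPS). It was lower with CRL1505 alone among the 3 treatments, by 0.91 (1.89-fold), with a ratio of 0.00 for CRL1506 + LPS. A second probe of the gene gave -0.80 and -0.12. The files place that second probe on chromosome 5 and the first on sequence of chromosome 1 without a fixed position. Among the subunits of the catalytic head, *Atp5a1* (alpha) had ratios of -0.48 and -0.16, although a dimmer probe of it gave -0.26 and -0.59. *Atp5b* (beta), which carries the catalytic sites, had ratios of 0.14 and -0.20. The 5 genes of the head and central stalk had medians of -0.34 and -0.16. By the brightest probe of each gene, *Atp5b* was the single one of the 15 genes of complex V above the median of all genes for CRL1505 + LPS. The dimmer probes of *Atp5b* gave 0.01 and -0.06 for CRL1505 + LPS, below that median, and -0.25 and -0.33 for CRL1506 + LPS.

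The c ring of complex V is built from 1 protein encoded by *Atp5g1*, *Atp5g2* and *Atp5g3*, which differ in their import sequences. *Atp5g2* was spotted 10 times on each array, which gave the error of a level within an array. Its level was 7.13 ± 0.05 (SD, n = 10 spots) with LPS, 7.09 ± 0.09 with CRL1505 + LPS and 6.68 ± 0.13 with CRL1506 + LPS. The highest spot of the CRL1506 + LPS array, 6.89, lay below the lowest spot of the LPS array, 7.07, and of the CRL1505 + LPS array, 7.00. The spots of 1 array share a hybridisation, so this spread holds no variation between cultures. With a ratio of -0.45, *Atp5g2* was the lowest gene of complex V for CRL1506 + LPS by the brightest probe of each gene. The dimmer probe of *Atp5a1* was lower, at -0.59. For CRL1505 + LPS the ratio of *Atp5g2* was -0.04. *Atp5g1* had ratios of -0.13 and -0.03, although a dimmer probe of it gave 0.11 and 0.78, and *Atp5g3* of -0.34 and -0.10. *Atp5o*, the subunit that ties the head to the outer stalk, had the highest ratio of complex V for CRL1506 + LPS, at 0.01, beside -0.08 for CRL1505 + LPS.

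Complex III showed a flat majority and 2 lower genes. *Uqcrh*, the hinge protein that sits beside cytochrome c1, was at 5.40 (LPS), 4.40 (CRL1505 + LPS) and 4.99 (CRL1506 + LPS). It was therefore lowest with CRL1505 and intermediate with CRL1506, with ratios of -0.999 and -0.41 and a difference of -0.59 between the strains. Its single probe gave ratios from -1.51 to -0.70 and from -0.61 to -0.28 over the other scalings. *Uqcr11*, a small subunit named here after its values were seen, had ratios of -0.67 and -0.17. *Uqcrc1*, a core subunit, had ratios of -0.13 and -0.00, *Uqcrc2*, the other core subunit, of 0.14 and -0.01, and *Uqcr10* of -0.15 and 0.03. *Uqcrfs1*, the Rieske iron-sulfur protein, had ratios of 0.13 and -0.26. The median of the 8 genes was -0.11 for CRL1505 + LPS and -0.04 for CRL1506 + LPS. Cytochrome c1 itself (*Cyc1*), which the family rule misses, had ratios of -0.31 and -0.03, and its electron acceptor cytochrome c (*Cycs*) had ratios of 0.33 and -0.17.

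Complex I had 36 genes, all of them measured, with a median of -0.09 in both comparisons. For CRL1505 + LPS 29 of the 36 lay below the median of all genes, and for CRL1506 + LPS 20 did. *Ndufa7*, an accessory subunit, had the largest positive ratio with CRL1505, at 5.65 (LPS), 6.19 (CRL1505 + LPS) and 5.65 (CRL1506 + LPS), a ratio of 0.54 against -0.00. *Ndufb10*, an accessory subunit of the membrane arm, had the lowest, at 5.59, 5.04 and 5.51, a ratio of -0.55 against -0.08. For CRL1506 + LPS the extremes were *Ndufs4*, an accessory subunit whose loss is a known cause of complex I deficiency, at 0.22 (0.36 for CRL1505 + LPS), and *Ndufb11* at -0.40 (-0.38 for CRL1505 + LPS). The 7 genes of the electron-carrying core had medians of -0.13 and -0.16 for CRL1505 + LPS and CRL1506 + LPS, and the other 29 had medians of -0.09 and -0.08. Within the core, *Ndufv1*, which binds NADH, had ratios of 0.07 and 0.01, and *Ndufs1*, which carries iron-sulfur clusters, of -0.23 and -0.23.

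Complex II is the one complex encoded wholly in the nucleus and also works in the citric acid cycle. Its flavoprotein *Sdha* had ratios of 0.09 and -0.18, its iron-sulfur subunit *Sdhb* of -0.05 and -0.01, and its membrane anchors *Sdhc* and *Sdhd* of -0.17 and 0.16 and of -0.54 and -0.23. The median of the 4 genes was -0.11 for CRL1505 + LPS and -0.10 for CRL1506 + LPS. *Sdhd* was at 5.00, 4.45 and 4.76 on the LPS, CRL1505 + LPS and CRL1506 + LPS arrays, and was the lowest of the complex in both comparisons.

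Where a gene had several probes, these mostly gave like ratios. Of 28 genes with more than 1 probe well above background on all arrays, the ratios of the probes lay within 0.25 of each other in 18 genes for CRL1505 + LPS and in 18 genes for CRL1506 + LPS. In 3 genes, *Ndufa10*, *Ndufs1* and *Sdha*, they differed by over 1, in each case through a second probe that was much dimmer than the main one. The dim probe of *Ndufa10* had ratios of -0.62 and 1.02 against 0.02 and -0.04 for the main probe, and the dim probe of *Ndufs1* had -0.31 and 0.96 against -0.23 and -0.23. The 4 probes of *Sdha* ranged from -1.26 to 0.10 for CRL1505 + LPS and from -0.98 to 0.67 for CRL1506 + LPS. Probes well above background on only some arrays stood outside these counts, and those below are named after their values were seen. The second probe of *Ndufs3* was at -5.19 (LPS, not well above background), -1.36 (CRL1505 + LPS) and -3.73 (CRL1506 + LPS). The main probe of *Ndufs3* had ratios of 0.10 and 0.02. A probe of *Uqcrb* was well above background on the LPS array alone, and a probe of *Ndufv2* on the CRL1506 + LPS array alone.

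Set directly against each other, the strains differed at 2-fold in 1 of the 77 genes, *Cox6a2*, which was higher with CRL1505 by 1.57, while 7.34% of all genes passed 2-fold upwards and 5.86% downwards with CRL1505. The lowest differences were those of *Atp5k*, at -0.92, and *Uqcrh*, at -0.59. The median of the genes was -0.02, or 0.11 below that of all genes (0.09, n = 13285), and 73 of 77 (94.8%) lay within 0.5, against 61.1% of all genes. These values depended on the scale. The median was 0.47 with a shift by the median of the gene spots, with 59.7% of the genes within 0.5, and -0.42 with spike-in probes, with 64.9% within 0.5. Under the other scalings *Atp5k* ranged from -1.32 to -0.42, so that 1 gene was at least 2-fold lower under 4 of the 7, and 2 genes were at least 2-fold higher with a shift by the median.

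The subunits encoded in mtDNA had higher median ratios than those encoded in the nucleus. The array carries probes named for 11 of the 13 mtDNA-encoded proteins, 1 probe each, all well above background on all arrays. For CRL1506 + LPS 5 of the 11 were at least 2-fold higher than with LPS alone, against 4.11% of all genes, and the median was 0.65, or 0.71 above that of all genes. For CRL1505 + LPS 1 of 11 was at least 2-fold higher, a share near the 7.82% of all genes, and the median was 0.28, or 0.22 above that of all genes. That 0.22 was 0.07 under cyclic loess, 0.11 in the deposited table, 0.14 under quantile normalization and 0.15 with normexp. In both comparisons 0 were at least 2-fold lower. With the strains set against each other, 2 of 11 were at least 2-fold lower with CRL1505 than with CRL1506, against 5.86% of all genes, *COX1* at -1.75 and *ND6* at -1.20. The ratios ranged from -0.89 to 1.45 for CRL1505 + LPS and from -0.38 to 2.66 for CRL1506 + LPS.

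*ND6*, a membrane subunit of complex I, was at 0.26 (LPS), 1.72 (CRL1505 + LPS) and 2.92 (CRL1506 + LPS), so that it was lowest with LPS alone and highest with CRL1506. Its ratios were 1.45 and 2.66, and it is the only protein gene on the light strand of mtDNA. The first 30 bases of its probe, at chrM:13552-13611 on the minus strand, are shown because the transcript lies opposite those of the other subunits.
ND6: gtagctgggtgatctttgtttgcgggtatt
On the CRL1506 + LPS array 6 of the 20 nearest spots of *ND6* were uneven, and its part in the value was not tested. *COX1*, the catalytic subunit of complex IV, was at 5.91 (LPS), 5.41 (CRL1505 + LPS) and 7.16 (CRL1506 + LPS). It was thus highest with CRL1506 and lowest with CRL1505, with ratios of -0.50 and 1.24. *ND5* had ratios of 0.97 and 1.19, *ND2* of 0.18 and 1.16, *ND4* of 0.74 and 0.65, and *CYTB*, the subunit of complex III, of 0.61 and 0.59, while *ND1* had ratios of -0.44 and -0.09.

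The files place 4 of these probes, those of *ND3*, *ND4L*, *COX2* and *ATP8*, not on the mitochondrial chromosome but on chromosome 1 of mm9, where a copy of mtDNA lies in the nuclear genome. Transcripts of mtDNA and of such a copy cannot be told apart by these probes. *ND4L* had ratios of 0.94 and 1.75, *COX2* of 0.28 and 0.35, *ATP8* of -0.31 and 0.23 and *ND3* of -0.89 and -0.38. With the 7 probes placed on the mitochondrial chromosome alone, the medians were 0.61 for CRL1505 + LPS and 1.16 for CRL1506 + LPS. Of these 7, 1 and 4 were at least 2-fold higher, against 7.82% and 4.11% of all genes. A count of 1 of 7 is too few to set apart from that share.

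**Figure D4:**
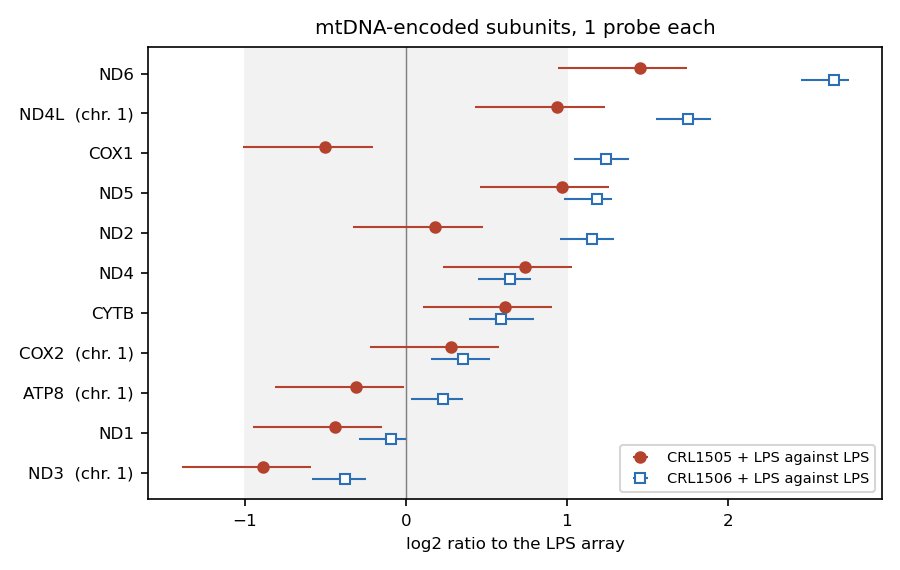
Log2 ratio to the LPS array of 11 mtDNA-encoded subunits (filled circles, CRL1505 + LPS; open squares, CRL1506 + LPS), 1 probe and 1 array each. Points are the reported values and lines the range over 7 other scalings and sources of values, not an error between cultures; the grey band spans less than 2-fold, and (chr. 1) marks 4 probes that the files place on that chromosome. ND6 lies farthest right at 1.45 and 2.66, and 5 squares lie beyond the band.

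Assembly factors insert cofactors and join subunits without staying in the complex. Of 42 assembly factors on the array, 41 were measured, with a median of -0.03 for CRL1505 + LPS and -0.08 for CRL1506 + LPS, or 0.09 and 0.01 below that of all genes. Of the 41, 1 passed 2-fold for CRL1505 + LPS, against 7.82% of all genes upwards and 6.56% downwards, and 0 for CRL1506 + LPS, against 4.11% and 2.10%. It was *Cox15*, which makes the heme A of complex IV, with a ratio of 1.01 for CRL1505 + LPS and -0.26 for CRL1506 + LPS. Over the other scalings the ratio of *Cox15* for CRL1505 + LPS ranged from 0.50 to 1.30, so its place beyond 2-fold depended on the scaling. Of 11 regulators of mitochondrial biogenesis, 10 were measured and 0 passed 2-fold in either comparison, too few genes to set apart from those shares. *Ppargc1a*, a coactivator of mitochondrial genes, was not well above background on the 3 arrays. Its relative *Ppargc1b* had ratios of 0.77 and 0.67, the transcription factor *Nrf1* of -0.62 and -0.61, and *Tfam*, which packages and transcribes mtDNA, of 0.38 and -0.13. *Ndufa4l2*, an inhibitory relative of *Ndufa4*, was dim, at -3.24 on the LPS array. It was well above background on the LPS and CRL1506 + LPS arrays (ratio 0.30) and not on the CRL1505 + LPS array. On the reported scale it was at least 1.85-fold lower with CRL1505 than with LPS alone, a bound of -0.89 on the log2 ratio. Over the other scalings this bound ranged from -1.39 to -0.20, so its size depended on the scaling.

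Sequences before the transcription start were taken for 68 of the 80 genes, 74 windows of 250 bases, from RefSeq on GRCm38.p6. They were searched on both strands for letters of 3 factors known at nuclear genes of mitochondrial proteins. The NRF1 motif, whose matches stand in capitals in the windows of *Cox6a1* and *Atp5k*, was found in 18.9% of these windows against 3.74% of all 32851 windows, CCGGAAG, the letters of ETS factors such as GABP, in 16.2% against 6.91%, and AAGATGGC, the letters of YY1, in 2.70% against 1.56%. Genes with and without the NRF1 motif had medians of -0.18 (n = 13) and -0.13 (n = 53) for CRL1505 + LPS and of -0.15 and -0.10 for CRL1506 + LPS. Those with and without the ETS letters had medians of -0.26 (n = 12) and -0.12 (n = 54) for CRL1505 + LPS and of -0.18 and -0.10 for CRL1506 + LPS. A match is a run of letters, not a measured site.

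The windows of 4 genes are shown, 5′ to 3′ along the gene with matches in capitals, as those of *Cox6a1* and *Cox7a1* contrast a widely found with a muscle isoform, and *Uqcrh* and *Atp5k* were the widely found subunits lowest with CRL1505. They lie at chr5:115348959-115349208 (minus strand), chr7:30183921-30184170 (plus), chr4:116075071-116075320 (minus) and chr5:108434400-108434649 (minus) of GRCm38.p6.
Cox6a1: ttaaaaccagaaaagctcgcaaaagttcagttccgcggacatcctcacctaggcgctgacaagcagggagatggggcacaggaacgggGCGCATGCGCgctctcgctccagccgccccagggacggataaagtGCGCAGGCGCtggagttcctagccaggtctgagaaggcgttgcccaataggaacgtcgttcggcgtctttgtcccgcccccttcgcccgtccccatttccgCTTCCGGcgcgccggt
Cox7a1: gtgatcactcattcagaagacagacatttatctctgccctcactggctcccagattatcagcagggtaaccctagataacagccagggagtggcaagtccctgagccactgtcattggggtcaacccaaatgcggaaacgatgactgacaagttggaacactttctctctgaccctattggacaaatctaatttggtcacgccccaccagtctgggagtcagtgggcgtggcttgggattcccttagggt
Uqcrh: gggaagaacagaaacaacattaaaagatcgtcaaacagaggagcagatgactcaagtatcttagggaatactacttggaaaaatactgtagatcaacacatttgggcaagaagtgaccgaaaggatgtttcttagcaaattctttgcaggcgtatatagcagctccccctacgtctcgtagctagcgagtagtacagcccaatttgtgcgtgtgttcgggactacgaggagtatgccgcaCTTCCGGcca
Atp5k: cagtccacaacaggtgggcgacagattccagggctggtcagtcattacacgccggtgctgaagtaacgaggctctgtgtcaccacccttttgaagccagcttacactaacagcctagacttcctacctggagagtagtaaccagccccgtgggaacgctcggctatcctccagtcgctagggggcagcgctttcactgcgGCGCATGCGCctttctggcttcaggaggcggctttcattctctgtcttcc
*Cox6a1* held 3 matches, 2 to the NRF1 motif and 1 to the ETS letters, *Cox7a1* held 0, *Uqcrh* 1 to the ETS letters and *Atp5k* 1 to the NRF1 motif.

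The position of the genes relative to all genes held its sign for CRL1505 + LPS and not for CRL1506 + LPS when the arrays were processed in other ways. Their median lay below that of all genes for CRL1505 + LPS under each of 12 other settings, from -0.30 to -0.18, 3 of which shift whole arrays and leave it as it is. For CRL1506 + LPS it lay from -0.18 to 0.08, above that of all genes under quantile normalization, cyclic loess and the deposited table. The scalings themselves moved the median of all genes by up to 0.51 for CRL1505 + LPS and 0.20 for CRL1506 + LPS, for which reason lists were set against all genes.

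**Figure D5:**
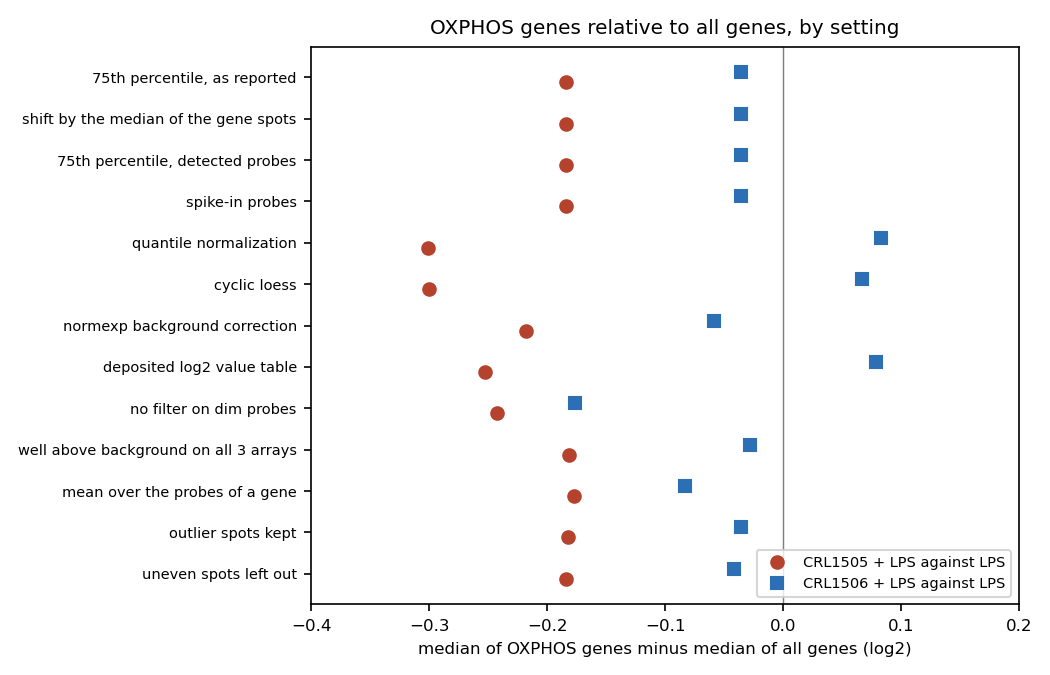
Median log2 ratio of the oxidative phosphorylation genes minus that of all genes (x axis), for the reported setting (top row) and 12 others (rows), without error bars. All circles (CRL1505 + LPS) lie left of 0, between -0.30 and -0.18, while the squares (CRL1506 + LPS) lie on both sides of it, between -0.18 and 0.08.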

How the data were processed

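Total RNA of each culture had been labelled with Cy3 and hybridised to a SurePrint G3 Mouse GE 8x60K array (1 array per group). The authors deposited, per array, spot intensities made by Feature Extraction (12.0.3.1 per the file headers), with local background subtracted and no scaling between arrays, and a table of log2 values normalized between arrays. The methods name GeneSpring and limma, with no setting.

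From the intensities, log2 processed signals were set against the array's own 75th percentile over gene spots. Outlier spots were left out, repeated spots averaged, and a gene represented by its brightest probe. Genes well above background on both arrays were compared. With 1 array per group the methods' t-test was left out and their 2-fold threshold alone was kept. The number of arrays limited the precision.

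The members and lists were chosen with earlier results of these data known. Genes named were those past 2-fold, the highest and lowest of each complex, core subunits, isoform sets, genes without signal and genes with discordant probes; genes of the accompanying lists were named if past 2-fold or if set beforehand by name. Others are said to be named after their values. The values of 1 gene are not reported here. Probe positions are those of the files (mm9), promoters RefSeq's (GRCm38.p6), and 3 symbols were matched by synonym. Python 3.11.15, pandas 2.3.3, NumPy 2.4.6 and R 4.3.3 with limma 3.58.1 (normexp with offset 50, quantile, cyclic loess) were used, and the steps were tested on simulated data.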

Additional observations from a re-analysis of the deposited data

How the results depend on the processing

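With 1 array per group, no replicate could be left out, and no paired analysis was possible because the groups compared share fewer than 2 replicate numbers. Medians of the oxidative phosphorylation genes minus that of all genes moved by over 0.1 for CRL1505 + LPS under quantile normalization (-0.30) and cyclic loess (-0.30). For CRL1506 + LPS they moved to 0.0833 under quantile normalization, 0.0671 under cyclic loess, 0.0793 in the deposited table and -0.18 without a filter on dim probes. Between the strains they moved to -0.33, -0.32 and -0.31 under quantile normalization, cyclic loess and the deposited table. Under quantile normalization the complexes moved to -0.29 (I), -0.27 (II), -0.30 (III) and -0.45 (V) for CRL1505 + LPS and to 0.11 (I), 0.0836 (II), 0.0503 (IV) and 0.0731 (V) for CRL1506 + LPS. With the mean over probes, complexes II and III moved to -0.13 and -0.0788 for CRL1506 + LPS.

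Genes at least 2-fold lower for CRL1505 + LPS numbered 1 as reported, 0 with a shift by the median and 0 without uneven spots. Leaving out uneven spots removed *Cox7a1* itself, so that 0 reflects no changed ratio. The number was 2 with normexp and in the deposited table, 3 with quantile normalization, cyclic loess and the 75th percentile of detected probes, and 7 with spike-in probes. The median of all genes moved as well, by -0.51 with spike-in probes and 0.30 with a shift by the median. Shares of all genes past 2-fold, here and above, are those of the reported setting alone. Genes at least 2-fold higher for CRL1505 + LPS numbered 2 without a filter and with the mean over probes. For CRL1506 + LPS 1 gene was lower with a shift by the median. At 1.5-fold, 2 genes were higher and 4 lower for CRL1505 + LPS and 1 lower for CRL1506 + LPS, and at 4-fold 0 were lower for CRL1505 + LPS and 0 higher for CRL1506 + LPS. The mtDNA-encoded genes at least 2-fold higher, examined after seeing the data, numbered 4 for CRL1505 + LPS with a shift by the median. They numbered 0 with spike-in probes and 0 without uneven spots, a setting that removed *ND6* itself. For CRL1506 + LPS they numbered 3 with a shift by the median. The causes of the other moves were not tested. Of 544 values of named genes under other settings, 473 moved by less than the SD between probes (0.23), 71 by more, and 0 of those past 2-fold changed sign. Dim probes limit *Cox6b2*, *Atp5s* and the second probes above.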

Other observations

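Other metabolic lists were measured on the same arrays. Of 14 genes of the citric acid cycle, which feeds the respiratory chain, 0 passed 2-fold in either comparison. Of all genes, 7.82% were higher and 6.56% lower with CRL1505, and 4.11% and 2.10% with CRL1506. The medians of the 14 genes were -0.03 for CRL1505 + LPS and -0.19 for CRL1506 + LPS. Relative to the medians of all genes these were -0.08 and -0.12, where the oxidative phosphorylation genes stood at -0.18 and -0.04. Of 17 genes of glycolysis, 2 passed 2-fold upwards and 1 downwards for CRL1505 + LPS, beside the same shares of all genes. For CRL1506 + LPS 0 passed in either direction. Their medians were -0.05 and -0.17, or -0.11 and -0.11 relative to all genes. *Hk2* and *Hk3*, which phosphorylate glucose, had ratios of 1.64 and 1.34 for CRL1505 + LPS, beside 0.51 and 0.60 for CRL1506 + LPS. *Eno3*, the muscle form of enolase, had ratios of -1.49 and -0.30. The 78 mitochondrial ribosomal proteins, found by symbol, had medians of -0.05 and -0.06, or -0.11 and 0.005 relative to all genes. Of them 1, *Mrpl18*, was at least 2-fold lower with CRL1505, at -1.20.

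Genes beside *Cox6a2* in the RefSeq order were looked at by position. *Itgax*, an integrin of macrophages and dendritic cells, had ratios of -0.84 and -1.07, *Itgad* gave no signal well above background, *9130023H24Rik* had ratios of -0.08 and -0.45, and *Armc5* of -0.49 and -0.22.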
